A study of Caenorhabditis elegans with 6 samples.

Results

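The comparison set worms of a mutant strain that flew in a 1 g centrifuge against worms of the same strain kept on the ground, read as microRNA levels on 1 array a side. Its members are the 154 worm miRNA probes of the mutant arrays, whose names carry the prefix for Caenorhabditis elegans; 90 of them exceeded the level of the control probes on at least 1 of the 2 arrays. The whole series held 6 arrays (2 strains by 3 exposures) of 2314 probes each. Both groups were dauer larvae, the stress-resistant arrested stage, of a strain whose genotype the labels give as ced-1(n1995) I, a mutation in the gene of a receptor by which cells engulf dying neighbours. The labels disagree on the strain, naming it LS292 in one field and MT4930 in another, and the name LS292 usually stands for worms that lack dys-1 (dystrophin). The genotype is therefore taken no further than the labels. The flight group spent 16.5 days in orbit at 23 °C in a slot spun at 1 g, where 2.27 mGy of radiation was measured, and was collected 7 h after landing. The ground group spent 16.5 days at 23 °C in a static slot of the same hardware, started later than the flight, and was collected after a further 7 h. Spinning, launch, landing, radiation and the earlier start all went with the flight group and cannot be told apart. Each sample pooled many worms, and no group had a second one, so no difference below has a test or a p-value, and each error (technical SE) was computed over a probe's 4 spots. That error covers neither the spread between worm samples nor the scaling of the arrays.

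MicroRNAs are short RNAs that guide Argonaute proteins to messenger RNAs and lower their output. Members of a family share the seed, the stretch that pairs first with a target. In worms, lin-4 and the let-7 family time larval development, the miR-35 family is needed in embryos, the miR-58/bantam family is among the most abundant, and miR-71 is known from lifespan, starvation survival and recovery from arrest. Arrays of whole worms cannot tell fewer cells that make a miRNA from less of it per cell.

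Values are given first as intensity: the median of the 4 spots of a probe, foreground minus local background, unscaled. Differences are log2 of flight over ground after each array was divided by its median over the 8 worm probes at 50 or more on all 6 arrays, 1221 on the flight array and 434 on the ground array. This scaling lowers every log2 difference by 1.49. The 8 probes themselves ran from -0.03 for miR-56-3p to 3.31 for miR-257 before scaling, so 1 factor is a coarse description. The next highest was miR-84-5p at 1.43. All of the 8 except miR-257 thus lay under the shift of 1.49, and below 0 after scaling. The factor, a ratio of 2 medians, was larger than the ratio of most of its own probes and leans toward lower values. Dye-labelled landmark spots (Hy3), which need no hybridization, had medians of 2894 on the flight array and 2901 on the ground array. An unscaled difference is the scaled one plus 1.49, so a scaled value between -1.49 and 0 has the opposite sign unscaled.

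A miRNA was taken as measured on an array when its intensity lay above that of 95% of the 476 spots of control probes there, a limit of 75.3 on the flight array and 150 on the ground array. By that rule 90 of 154 miRNAs were measured in flight and 36 on the ground. All 36 were among the 90, 54 were above the limit in flight only, and 64 were above it on neither array. The limits were unequal, as were the control probes beneath them, which had a median of 38 in flight and 64 on the ground. For a miRNA above the limit in flight alone, the ground limit stood in for its ground value and the fold is a lower bound.

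After scaling, 7 of 90 miRNAs (7.78%) were at least 2-fold higher in flight and 12 of 90 (13.3%) at least 2-fold lower. Among the 36 measured on both arrays these were 6 (16.7%) and 12 (33.3%). Of the 36 measured on both arrays, 10 lay above 0 and 26 below, with a median of -0.53. Unscaled, 30 of 90 (33.3%) were at least 2-fold higher, 3 of 90 (3.33%) lower, and the median was 0.96. So the balance of higher against lower miRNAs depends on the scaling, and on the ground limit. After scaling that limit corresponds to 422 on the flight array. A miRNA dimmer than that in flight could be measured on both arrays only with a value below 0. For miR-228-5p, miR-253-3p, miR-788-5p, miR-1824-5p, miR-240-3p, miR-236-3p and miR-245-3p, passing the limit alone fixed a call of at least 2-fold lower. The order of the 36 does not depend on the scaling, since any single factor per array shifts them alike. That order ran over 4.98 log2 units, from miR-228-5p, miR-253-3p and miR-81-3p at the low end to miR-58-3p, miR-71-5p and the probe shared by miR-44-3p and miR-45-3p at the high end.

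**Figure D1:**
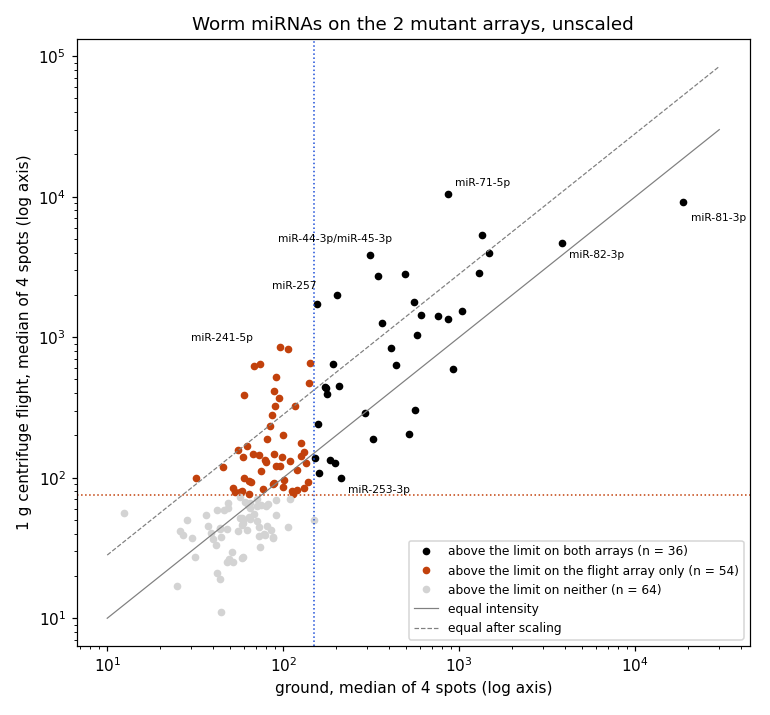
Each point is 1 worm miRNA, with its unscaled intensity (median of 4 spots, log axis) on the 1 g centrifuge flight array upward and on the ground array across; dotted lines mark the control-probe limits of 75.3 (flight) and 150 (ground). miR-71-5p stands far above and miR-81-3p below the line of equal intensity, and the dashed line shows where values are equal after scaling.

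The spots of the ground array scattered far more than those of the flight array. Over the 36 miRNAs the median SD of the 4 spots was 0.16 log2 units in flight and 1.36 on the ground, and it was larger on the ground for 33 of 36. In flight all 4 spots exceeded the limit for 35 of the 36, on the ground for 17. miR-48-5p shows the pattern: its flight spots read 5718, 5236, 5105 and 5486, and its ground spots 623, 1090, 1613 and 12112. The first 3 ground spots lay far under every flight spot and the last far above them all.

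The scatter followed position on the slide. The 4 copies of a probe lie in 4 blocks of 48 that are 12 apart. In 7 blocks, numbers 4, 8, 12, 16, 45, 46 and 47, probes with no name in the table were brighter on the ground array than in flight, with a median spot difference of -0.74. In the other 41 blocks the unnamed probes had a median of 1.91 in favour of flight. These were 198 unnamed probes with a mean of the 2 arrays over 200, and they played no part in choosing worm miRNAs. The worm miRNAs measured in flight moved with them. In those 7 blocks 41 of 56 ground spots (73.2%) equalled or exceeded the flight spot at the same position, and the median unscaled difference was -0.91. In the other blocks 60 of 304 (19.7%) did so, with a median of 0.99. On the ground array, control spots had a median of 93.5 in the 7 blocks and 61.5 elsewhere, against 36 and 38.5 on the flight array. Blocks of 1 slide are not replicates and no test was made. The part of slide position in each difference was not tested, but 2 alternatives chosen after these values were seen show how far it matters. The first divided each pair of spots by the unnamed probes of its block (block scaling). Under it 8 of 90 (8.89%) passed 2-fold upward and 10 of 90 (11.1%) downward. The second left the 7 blocks out of both arrays.

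**Figure D2:**
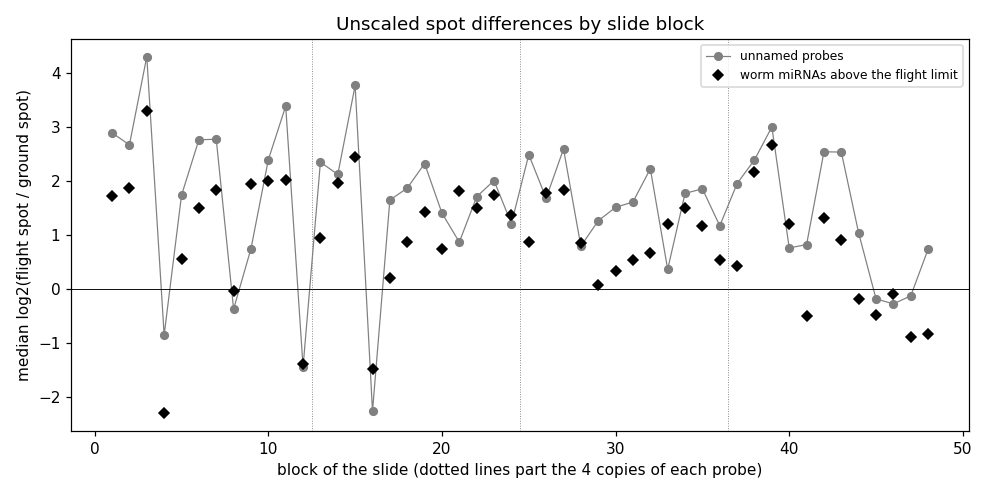
Each block of the slide has its median unscaled log2 difference between the flight and the ground spot at the same position, as joined grey points for unnamed probes and black diamonds for worm miRNAs measured in flight. Both kinds of probe drop below 0 in blocks 4, 8, 12 and 16 and again from block 45 to 47, while most other blocks lie between 0 and 3.

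Of the 19 miRNAs called, 3 kept their 2-fold call under every alternative that gave them a value: miR-257 as higher, and miR-81-3p and miR-253-3p as lower. All 14 alternatives gave miR-81-3p a value, and 13 gave one to each of the others. The stricter control limit, 1144 on the ground array, gave neither miR-257 nor miR-253-3p a value, so it did not check their calls. miR-257, a miRNA named early from computational prediction, had flight spots of 2861, 2032, 1435 and 1955, against ground spots of 226, 163, 176 and 242. Every flight spot lay above every ground spot, and the same held after scaling. The median intensity was 1994 in flight and 201 on the ground, a scaled log2 difference of 1.82 (technical SE 0.25). Over the alternatives it lay between 1.25 (mean of the spots) and 3.31 (unscaled). The mean-of-spots setting also scaled each array by the spot means of its own scaling probes. Its values therefore differ in the scaling factor as well as in the spot summary. miR-257 is itself 1 of the 8 scaling probes.

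miR-81-3p, of the miR-58/bantam family, was the brightest worm probe of the ground array. Its flight spots read 11168, 9877, 8336 and 8309, and its ground spots 17886, 19429, 11504 and 22836. The sets of spots did not overlap, even unscaled, and flight was the lower at each of the 4 positions. The scaled log2 difference was -2.53 (technical SE 0.24), with a range of -3.04 to -1.03 over the alternatives, the end nearest 0 being the unscaled value.

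miR-253-3p, from the other arm of the hairpin that also gives miR-253-5p, was dim on both arrays, with flight spots of 141, 99, 101 and 79 and ground spots of 202, 144, 222 and 304. Flight was again the lower at all 4 positions, but the flight values lay close to the limit of 75.3. Its scaled log2 difference was -2.58 (technical SE 0.28), and -1.08 unscaled. At its flight level, passing the ground limit of 150 fixed its lower call after scaling. Without scaling, passing that limit fixed the direction but not the 2-fold size. Unscaled, 10 of 36 miRNAs (27.8%) had every flight spot above every ground spot and 2 of 36 (5.56%) had every one below, namely these last 2. After scaling the counts were 2 of 36 (5.56%) above and 8 of 36 (22.2%) below.

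**Figure D3:**
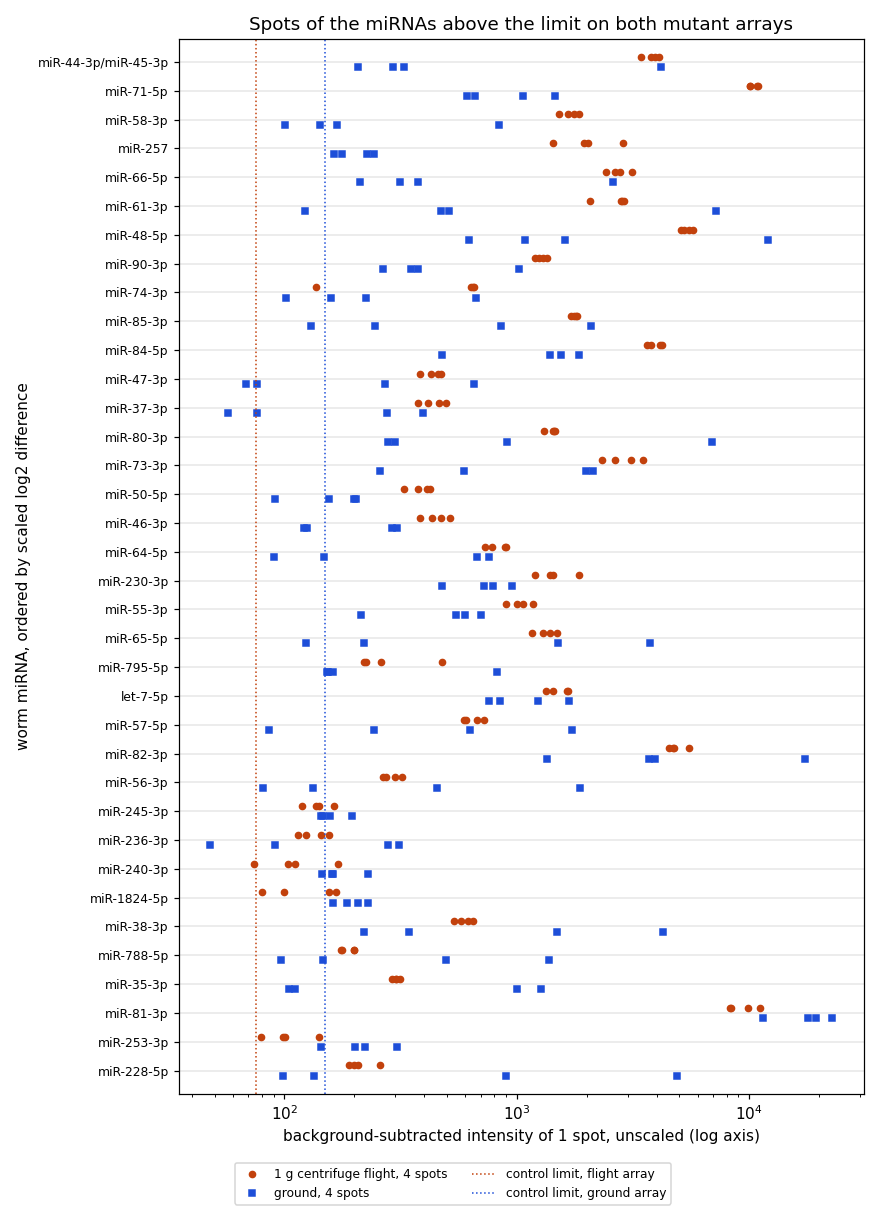
Each row is 1 of the 36 miRNAs measured on both arrays, with its 4 flight spots as orange circles above its 4 ground spots as blue squares, in unscaled intensity on a log axis; dotted lines mark the 2 control limits. Flight spots form tight groups, ground spots of 1 miRNA span more than a 10-fold range for 14 of 36, and the spots of miR-257, miR-71-5p and miR-81-3p stand apart between the arrays.

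miR-71-5p, which supports long life and survival of arrest, was the brightest worm miRNA in flight. Its flight spots read 10134, 10921, 10862 and 10117, and its ground spots 612, 660, 1455 and 1062. No ground spot came near a flight spot, and the scaled difference was 2.11 (technical SE 0.30). Its 4 blocks (3, 15, 27 and 39) were also those where unnamed probes were dimmest on the ground relative to flight in each copy, and with block scaling the value came to 0.27.

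The probe shared by miR-44-3p and miR-45-3p had the largest scaled value, 2.15 (technical SE 1.00). Its flight spots read 4091, 3936, 3436 and 3795, and its ground spots 293, 207, 326 and 4186. At 3 positions flight was far higher, and at the last, in block 45, the arrays were nearly equal. The mean of the spots gave -0.51, a value that takes in both that bright spot and the different scaling factor of that setting. miR-61-3p, of the same seed family and known from vulval cell fate, read 2817, 2824, 2073 and 2893 in flight and 122, 510, 470 and 7209 on the ground. Flight was again far higher at 3 positions, and the last ground spot, in block 47, exceeded every flight spot. The scaled difference of 1.03 (technical SE 1.24) lay within its error, and the mean of the spots, with its own scaling, gave -1.76. miR-247-3p, the other member, was under the limit on both arrays. Both members measured on the 2 arrays were thus at least 2-fold higher, beside 16.7% of the 36, and both directions turned with the mean of the spots.

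miR-58-3p, the best known member of the miR-58/bantam family, which represses genes of the TGF-beta pathways, read 1857, 1655, 1525 and 1771 in flight, against 101, 142, 168 and 836 on the ground. Here too the last ground spot, in block 46, was the high one, yet it stayed under the flight spots. The scaled difference was 1.97 (technical SE 0.68), and 0.34 with the mean of the spots. miR-80-3p, whose loss mimics dietary restriction, read 1467, 1432, 1444 and 1312 in flight and 907, 6902, 298 and 278 on the ground, and its scaled difference was -0.24 (technical SE 1.08). miR-82-3p read 5488, 4690, 4745 and 4539 in flight against 17362, 3722, 3923 and 1351 on the ground, which gave -1.19 (technical SE 0.76) scaled and 0.30 unscaled. The family's 6 probes therefore held 1 called higher, 2 called lower and 4 measured on both arrays. Their median was -0.71, beside -0.53 over all 36, and 0.47 with block scaling. miR-80-5p and miR-1834-3p were above the limit on neither array. The summed unscaled intensity of the family was 17018 in flight and 23356 on the ground, of which miR-81-3p made up the larger part on both.

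Of the 7 let-7 family probes, 6 were measured in flight and 4 on both arrays, and the median of the 4 was -0.46. let-7-5p, which drives the switch from larva to adult, read 1660, 1638, 1426 and 1333 in flight and 758, 1680, 850 and 1234 on the ground. Its scaled difference was -0.94 (technical SE 0.27) and its unscaled one 0.56, so its direction rests on the scaling, to which it contributes as 1 of the 8 probes. miR-84-5p, another scaling probe, read 4210, 3793, 4140 and 3634 in flight against 477, 1396, 1545 and 1845 on the ground. Unscaled, all 4 flight spots lay above the ground spots (1.43), and the scaled value was -0.06 (technical SE 0.44). miR-48-5p, described above, came to 0.49 (technical SE 0.93), and miR-795-5p to -0.87 (technical SE 0.65).

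miR-241-5p, which acts with miR-48 and miR-84 at an early larval transition, was the 1 miRNA above the limit in flight alone that passed 2-fold. Its flight spots read 902, 901, 807 and 789 and its ground spots 102, 89, 102 and 63, all under the ground limit of 150. It was thus at least 2.02-fold higher in flight after scaling. With block scaling the bound shrank to 0.09 log2 units. miR-793, of the same family, read 620 in flight and 68.5 on the ground, at least 1.47-fold higher. The heterochronic lin-4-5p, which ends the first larval programme, read 704, 680, 621 and 593 in flight and 81, 267, 201 and 81 on the ground. It was at least 1.54-fold higher after scaling, although the mean of the spots, with its own scaling, gave -0.07. Before scaling every flight spot lay above every ground spot. miR-237-5p, its family partner, read 233.5 in flight and 84.5 on the ground and allowed no fold, because the scaled ground limit corresponds to 422 on the flight array.

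Of the 54 miRNAs above the limit in flight alone, 47 allowed no fold for that reason. The remaining bounds were at least 1.94-fold for miR-72-5p (819.5 in flight, 107 on the ground), 1.53-fold for miR-63-3p (648 and 74), 1.24-fold for miR-39-3p (523 and 91) and 1.12-fold for miR-1-3p (474 and 140). All 4 flight spots of miR-72-5p and of miR-63-3p lay above all 4 ground spots, also after scaling. Both share blocks 3, 15, 27 and 39 with miR-71-5p and with miR-793. The median of the spot pairs after block scaling was -0.55 for miR-72-5p, -0.04 for miR-63-3p and -0.53 for miR-793, so their higher level in flight was not kept. miR-1-3p, the body muscle miRNA, had flight spots of 277, 570, 542 and 406 and ground spots of -3, 5033, 103 and 177, the 5033 in bright block 16. The ground spots thus lay on both sides of the flight spots, and 2 of them exceeded the limit that stood in for the ground value. The mean of the spots, with its own scaling, gave -3.68. miR-34-5p, which is part of the response to radiation damage in worms, read 396, 365, 373 and 351 in flight and 99, 91, 100 and 74 on the ground, where it lay under the limit. It was tightly measured and higher in flight before scaling, and it allowed no fold after it. miR-83-3p, a miRNA tied to the coordination of autophagy in ageing, read 417 in flight and 89 on the ground, with no fold either.

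Within the miR-35 family 6 of 8 probes were measured in flight and 3 on the ground. The 3 had a median of -2.12, with 2 of the 3 at least 2-fold lower, beside 33.3% of the 36 measured on both arrays. That median came to -0.69 with block scaling. Without the 7 bright blocks only miR-37-3p and miR-38-3p were still measured on both arrays, with a median of -0.26. miR-35-3p read 301, 290, 301 and 313 in flight and 1271, 105, 111 and 1006 on the ground, a scaled difference of -2.38 (technical SE 0.98). miR-38-3p read 649, 535, 576 and 614 in flight and 4281, 221, 344 and 1488 on the ground, a scaled difference of -2.12 (technical SE 0.98). For both, the first and the last ground spot stood above the flight spots and the middle pair below. Both have their first copy in block 12, where unnamed probes were likewise brighter on the ground. The last copies lie in block 48, which is not among the 7, and there unnamed probes were brighter in flight, by 0.74. Leaving out the 7 bright blocks gave -0.55 for miR-38-3p. For miR-35-3p the ground value then lay under the limit, so its 0.03 is a lower bound. miR-37-3p, with 414, 494, 374 and 462 in flight and 76, 395, 275 and 57 on the ground, came to -0.17 (technical SE 0.69). miR-36-3p and miR-41-3p were above the limit on neither array.

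Bright blocks recurred among the other miRNAs called lower. miR-228-5p, implicated in the lifespan response to restricted food, read 208, 199, 190 and 259 in flight and 898, 4885, 134 and 99 on the ground. Its high ground spots lay in blocks 4 and 16 and its scaled difference was -2.84 (technical SE 1.31). In the other blocks flight was the higher, by 0.95 unscaled, and without the 7 blocks the ground value lay under the limit. miR-788-5p, with its first copy in block 4 as well, read 199, 177, 175 and 200 in flight and 1370, 498, 97 and 147 on the ground, a scaled difference of -2.27 (technical SE 0.87) that came to -0.13 with block scaling. miR-56-3p, of the miR-51 family of essential miRNAs, also starts in block 4. It read 274, 299, 265 and 319 in flight and 1873, 452, 133 and 81 on the ground, for -1.52 (technical SE 1.01), and turned to 0.71 with block scaling. miR-236-3p, with its first copy in block 12, came to -1.96 (technical SE 0.66) and to -0.25 with block scaling. For miR-228-5p, miR-788-5p and miR-236-3p, passing the ground limit at their flight levels fixed the lower call after scaling.

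The other lower miRNAs were dim, with ground spots close together. miR-1824-5p read 100, 156, 167 and 80 in flight and 207, 228, 162 and 186 on the ground (-2.11, technical SE 0.28). miR-240-3p read 170, 74, 111 and 104 in flight and 228, 145, 160 and 161 on the ground (-2.07, technical SE 0.28). miR-245-3p read 164, 119, 141 and 137 in flight and 157, 143, 147 and 196 on the ground (-1.62, technical SE 0.14). Their ground values were 197, 161 and 152, against a limit of 150, and unscaled they differed by -0.62, -0.58 and -0.13. At their flight levels, passing that limit fixed their lower call after scaling. The values came to -2.07, -3.06 and -1.24 with block scaling. The control-probe medians were 38 in flight and 64 on the ground, and the part of nonspecific signal was not tested.

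**Figure D4:**
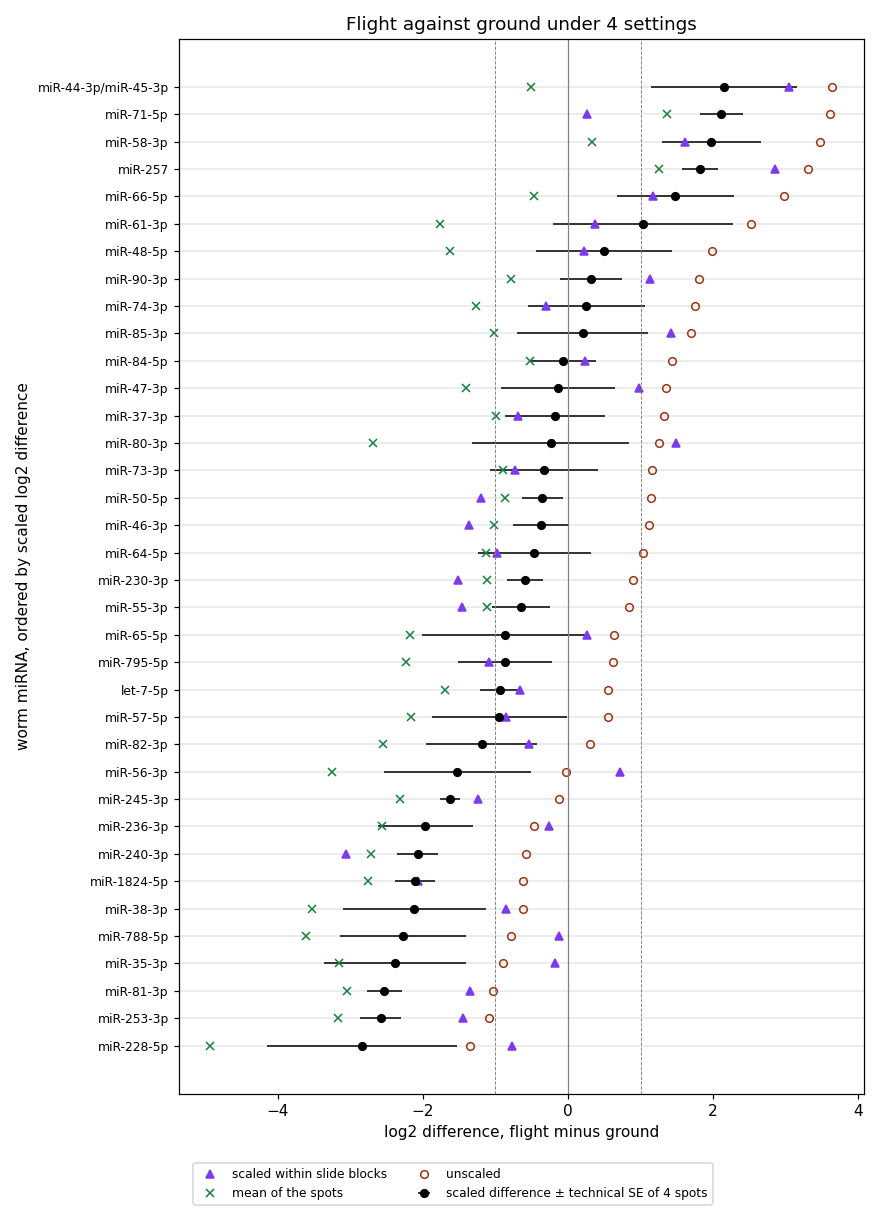
The log2 difference of flight minus ground is drawn for the 36 miRNAs under 4 settings: scaled with its technical SE (black), scaled within slide blocks (triangles), with the mean of the spots (crosses) and unscaled (open circles), with dashed lines at 2-fold. miR-257 stays right of 1 and miR-81-3p and miR-253-3p stay left of -1 in all 4, while 23 of the 36 take both signs.

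Position in the genome tied several members together. In the WBcel235 gene table, used for names and neighbours only, mir-64, mir-65, mir-66 and mir-229 lie within 5 kb of each other inside gcn-1. Their scaled values differed in sign. miR-66-5p came to 1.48 (technical SE 0.81), with flight spots of 3132, 2786, 2411 and 2650 and ground spots of 211, 315, 377 and 2606. miR-64-5p came to -0.46 (technical SE 0.78) and miR-65-5p to -0.86 (technical SE 1.16), and miR-229-5p, at 153 in flight and 132 on the ground, allowed no fold. Unscaled, miR-64-5p (1.03), miR-65-5p (0.63) and miR-66-5p (2.97) all lay above 0. With the mean of the spots and its own scaling all lay below it, at -1.13, -2.18 and -0.47, so the difference in sign rests on the setting. The ground spots of miR-65-5p, at 1509, 124, 221 and 3733, spanned the flight spots of 1486, 1298, 1160 and 1384 on both sides. mir-81 and mir-82 share the gene gid-2 and differed by -2.53 and -1.19. mir-48 and mir-241 are neighbours too, with 0.49 for the one and at least 2.02-fold for the other. mir-73 and mir-74 came to -0.34 (technical SE 0.74) and 0.25 (technical SE 0.81).

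The remaining miRNAs measured on both arrays stayed within 2-fold after scaling. miR-57-5p, which acts in tail cell fate, came to -0.95 (technical SE 0.93), and miR-55-3p to -0.65 (technical SE 0.40). miR-230-3p came to -0.59 (technical SE 0.25), with flight spots of 1854, 1430, 1388 and 1193 above all its ground spots of 956, 789, 722 and 478 before scaling. miR-46-3p and miR-47-3p, a seed pair, came to -0.37 and -0.14, and miR-50-5p and miR-90-3p, of another family, to -0.35 and 0.31. miR-85-3p had even flight spots, at 1710, 1799, 1762 and 1822, against 855, 245, 130 and 2088 on the ground (0.20, technical SE 0.90).

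Tissue and stage markers were read for the makeup of the worm samples. The sums that follow are unscaled, each with the flight sum after scaling to the ground array. Embryo and germline markers summed to 2094 in flight (744 scaled) and 1950 on the ground. Neuron markers summed to 399 in flight (142 scaled) and 517 on the ground, with 2 of 4 above the limit in flight (miR-124-3p and lsy-6) and 0 of 4 on the ground. All 4 have copies in the bright blocks 4 and 16. Their ground spots in block 4 read 874 (miR-124-3p), 1141 (lsy-6), 1190 (miR-791-3p) and 1555 (miR-273). miR-1-3p is given above, and the intestinal miR-60-3p, at 59 in flight and 42 on the ground, was under both limits. The late stage markers let-7-5p and lin-4-5p summed to 2183 in flight (775 scaled) and 1183 on the ground, so their direction turns with the scaling. The part of tissue makeup or stage in any difference was not tested.

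The same strain in the static flight slot, read on its own array, whose limit was 97, gave unscaled intensities of 3388 for miR-71-5p, 1981 for miR-257 and 2568 for miR-81-3p. On the wild-type (N2) arrays 13 of the 36 miRNAs exceeded the limits of 20 in centrifuge flight and 13.3 on the ground. Among these, miR-257 read 249 in flight and 332 on the ground, a scaled difference of -0.09, and miR-81-3p read 185 and 152, a scaled difference of 0.62. Neither approached 2-fold in N2, and the difference between strains was not tested.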

How the data were processed

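Hy3-labelled total RNA of each sample was read on a 1-colour miRNA array, per the labels' protocols. The deposited tables hold spot intensity with and without local background subtracted, per the file headers. The authors also deposited an intensity per probe and a normalized value, a ratio of that intensity to 1 factor per array (286.5 for the flight and 201 for the ground array), whose rule the labels and headers leave unstated, as they do the scanner software. The authors' intensity per probe equals the median of the spots for 2314 of 2314 probes of both arrays (tolerance 0.01), so medians were used here. A total of 30 other value columns were not used, among them the series value table, whose labels go against the sample names of the raw tables. The 4 spots share 1 RNA sample, and the number of arrays limits the precision.

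Scaling, limit and bounds are given in the results. Technical SEs come from log2 spot values with a floor of 20. miRNAs were named by rule: the 12 highest and 12 lowest differences, the 5 largest bounds, the 5 brightest of each array and members of family, tissue and stress lists. Members, lists and rules were chosen with earlier results of these data known. Alternatives covered scaling, spot summary, background (normexp of limma 3.58.1 in R 4.3.3, offset 50) and detection. The comparison was run on simulated data with the same small spot scatter and the same limit on both arrays, scaled by probes known to be unchanged. The simulation had no uneven ground array and no unequal limits, so it checks the arithmetic and not the calls made here. Python 3.11.15 with pandas 2.3.3 was used. Of 154 probes, 143 matched a gene symbol in the WBcel235 table. Sequences were not used here.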

Additional observations from a re-analysis of the deposited data

Results flagged for a closer look

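miR-788-5p, miR-56-3p, miR-1824-5p and miR-245-3p stood out because the mutant and N2 moved opposite ways between centrifuge flight and ground, each by at least 2-fold after scaling. The scaled log2 differences in the mutant were -2.27, -1.52, -2.11 and -1.62. In N2 they were 1.98, 1.41, 1.83 and 1.37, from intensities of 72.5, 112, 52.5 and 49.5 in flight against 23, 52.5, 18.5 and 24 on the ground. The N2 ground values of miR-788-5p, miR-1824-5p and miR-245-3p lay close to the limit of 13.3 on that array, and N2 values are given under the main scaling only. At their mutant flight levels, miR-788-5p, miR-1824-5p and miR-245-3p had to be called lower after scaling once they passed the ground limit. The mutant side also depended on the setting. With block scaling miR-56-3p came to 0.71, the direction of N2, and miR-788-5p to -0.13, while unscaled miR-1824-5p came to -0.62 and miR-245-3p to -0.13. Each strain had 1 array a side and the difference between strains was not tested.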

How the results depend on the processing

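No paired analysis was possible because each group had 1 array. Against 7 miRNAs at least 2-fold higher and 12 lower, the counts were 30 and 3 unscaled. Scaling by miRNAs at 50 or more on the 3 mutant arrays gave 18 and 8. The counts were 17 and 8 with the authors' normalized intensity, and 2 and 39 with the mean of the spots under its own scaling. They were 11 and 13 with the control-probe median subtracted, 12 and 25 with detection at 50 and a floor of 50 together (136 miRNAs compared), 1 and 2 with the 99th percentile limit (92.8 in flight, 1144 on the ground, so fewer miRNAs were compared) and 12 and 84 with no detection filter and a floor of 20 together (154 compared). Leaving out the 7 bright blocks, chosen after the data were seen, gave 12 and 7. The median of -0.53 came to 0.96 unscaled, 0.50 with the 3-array scaling, 0.45 with the authors' values and -1.96 with the mean of the spots. Called values that turned were miR-61-3p (-1.76), the shared probe of miR-44-3p and miR-45-3p (-0.51) and miR-66-5p (-0.47) with the mean of the spots, miR-82-3p unscaled (0.30), miR-56-3p with block scaling (0.71) and miR-35-3p without the bright blocks (0.026, a lower bound because its ground value was then under the limit). Of 6 list medians past 2-fold, 3 took the opposite sign in some alternative. The miR-44 family turned with the mean of the spots (-1.13), and the miR-51 family (0.41) and the ageing, starvation and stress list (0.085) unscaled. All 6 list medians within 2-fold changed sign in some alternative, among them the let-7 family (1.03 unscaled) and the miR-58/bantam family (0.78 unscaled). Of 529 values of named miRNAs under the alternatives, 295 moved by less than the technical SE. That count does not measure stability. The settings with a floor of 50 or of 20 left bright miRNAs such as miR-81-3p at the main value (-2.53). A large technical SE also lets a large move count as small. Beyond the construction of each setting, the cause was not tested.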

Other observations

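Of the 13 probes on the list of miRNAs tied to ageing, starvation and stress, 9 were measured in flight and 4 on both arrays. miR-235-3p, which holds back development of starved larvae, read 106, 84, 76 and 102 in flight and 146, 99, 132 and 333 on the ground, under the ground limit. miR-238-3p read 230, 328, 368 and 319 in flight and 97, 81, 137 and 326 on the ground, also under it. miR-246-3p read 82 in flight and 120 on the ground. Summed unscaled intensity of the list was 13678 in flight (4859 after scaling to the ground array) and 2990 on the ground, and miR-71-5p made up most of the flight sum.

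Late-numbered miRNAs, which joined the catalogue after deep sequencing, had 16 of 38 probes measured in flight and 3 on both arrays, with a median of -2.11 beside -0.53 over all 36. With block scaling the median of the 3 was -1.09. These were miR-788-5p, miR-1824-5p and miR-795-5p, all under 422 in flight, so passing the ground limit placed each below 0 after scaling. Their summed unscaled intensity was 3402 in flight (1208 scaled) and 3051 on the ground.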
